A study of Mus musculus with 20 samples.

Results

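The transcripts of 10 proliferation and cell cycle genes, Mki67, Top2a, Ccna2, Ccnb1, Cdk1, Ccnd1, Mcm2, Cdc45, Cdkn1a and Mdm2, were followed in the livers of mice fed a high fat diet (HFD) and exposed to polychlorinated biphenyls (PCBs). They were chosen by gene symbol, through the Ensembl identifiers of the deposited count table and the GENCODE M21 annotation, and all 10 were among the 15522 of 21780 genes with at least 10 counts in total over 20 liver libraries. The mice were male C57Bl/6J, all on HFD with 42% of calories from fat for 12 weeks. Each of the 4 groups had 5 mice with 1 library each. The HFD control group received corn oil at 10 weeks of age. The HFD + Aroclor group received Aroclor 1260, a commercial mixture of mostly non-dioxin-like PCBs, at 20 mg/kg. The HFD + PCB 126 group received PCB 126, a dioxin-like congener that activates the aryl hydrocarbon receptor, at 20 µg/kg. The HFD + Aroclor + PCB 126 group received both at the same doses. Each agent was given in a single oral gavage. By the methods this came 2 weeks into the diet, which began at 8 weeks of age, and 10 weeks of exposure followed. There was no group on a control diet, so every value below is one in HFD-fed liver.

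Dividing cells pass from G1 through S phase, in which DNA is copied, to G2 and mitosis. D-type cyclins with CDK4 or CDK6 release E2F factors from the retinoblastoma proteins in G1, the helicase of MCM proteins, CDC45 and GINS opens DNA in S phase, and cyclins A and B with CDK1 drive entry into mitosis, while p53 holds the cycle back through the CDK inhibitor p21. Most hepatocytes of an adult liver rest outside the cycle and can enter it again after tissue loss or injury.

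The 20 libraries held 21836506 to 36854887 counts. The 8 hepatocyte markers examined, among them Alb and Ttr, summed to between 87517 and 122983 counts per 1000000 (CPM) in every library. Of 4 transcripts used as a check of the exposure, Cyp1a1 and Cyp1a2, both aryl hydrocarbon receptor targets, passed the test with PCB 126, where 0.116% of all genes did. With the combined exposure 1 of the 4, Cyp1a2, passed against HFD control, where 32.8% of all genes did. With Aroclor 0 of 4 and 0% of all genes passed. The 4 summed to 250 to 521 CPM in HFD control and 284 to 510 CPM with Aroclor. With PCB 126 they summed to 1131 to 2925 CPM, and with the combined exposure to 542 to 1003 CPM. Against PCB 126 alone, where 16.7% of all genes were called, Cyp1a1 and Cyp1a2 were called lower with the combined exposure, and Cyp1a1 alone after GC correction. The slope of log2 expression on transcript GC content, per 10 percentage points, was 0.26 ± 0.18 (SD, n = 5) in HFD control and -0.38 ± 0.21 in HFD + Aroclor + PCB 126, and these 2 groups did not overlap. GC-corrected values are therefore given beside the results, and for all 10 members as diamonds in the plot of differences from control, and the part of GC in those results was not tested. In bulk liver, fewer dividing cells and less RNA per dividing cell cannot be told apart.

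Most of the cell cycle transcripts were scarce in HFD control liver. Per length, in FPKM (CPM divided by exon length in kilobases), the highest levels were those of Mdm2, the ubiquitin ligase that restrains p53, at 6.41 ± 0.798 (SD, n = 5), and Ccnd1, which encodes the G1 cyclin D1, at 5.50 ± 1.11. These 2 ranges overlapped. Cdkn1a, which encodes p21, followed at 2.45 ± 0.629 FPKM, apart from the ranges above and below it. Mcm2, a subunit of the replicative helicase, stood at 0.651 ± 0.0900 FPKM, and below it came Cdc45 at 0.520 ± 0.159, Cdk1 at 0.378 ± 0.185, Mki67 at 0.317 ± 0.143, Ccna2 at 0.246 ± 0.0863, Top2a at 0.217 ± 0.0767 and Ccnb1 at 0.0833 ± 0.0507. From Mcm2 downward each range overlapped the next, so the order of those 7 neighbours was not larger than the spread between mice. Over all 20 libraries the mean FPKM of Mdm2 lay at percentile 74.4 of the tested genes, that of Ccnd1 at 71.9, that of Cdkn1a at 54.5 and that of Ccnb1, the lowest member, at 18.7.

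The spread between single mice was wide. From the lowest to the highest of the 20 livers, Ccnb1, which encodes the mitotic cyclin B1, ranged 8.90-fold, on 3 to 37 counts per library, so counting error weighed on it most. Cdkn1a ranged 5.40-fold, Ccna2 (cyclin A2) 5.35-fold, Mki67, the gene of the proliferation marker Ki-67, 4.43-fold, Top2a (DNA topoisomerase II alpha) 4.34-fold and Cdk1 3.83-fold. Mcm2 ranged 2.85-fold, Cdc45 2.63-fold and Ccnd1 2.51-fold. Mdm2 ranged only 1.46-fold, from 25.5 to 37.4 CPM.

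**Figure D1:**
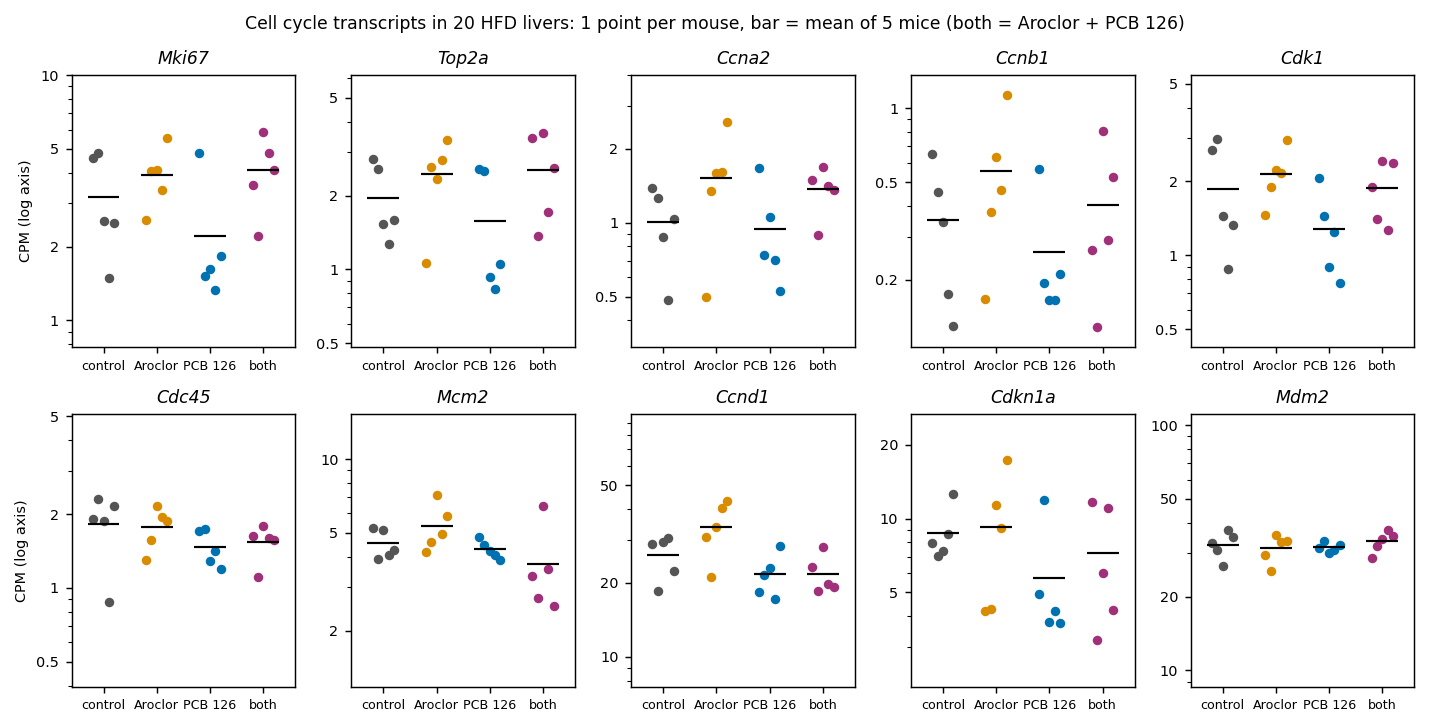
Level of each cell cycle transcript in CPM (log axis, the same number of doublings in every panel) by exposure group, with 1 point per mouse and a bar at the mean of 5 mice. Mdm2 stays between 25.5 and 37.4 CPM, while Mki67 runs from 1.33 to 5.88 CPM and overlaps between all groups.

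In HFD control liver Mki67 measured 4.60, 4.79, 2.56, 1.49 and 2.49 CPM in replicates 1 to 5. In HFD + Aroclor it measured 2.56, 4.05, 4.10, 3.39 and 5.57 CPM. Control replicates 1 and 2 were higher than the other control mice, and the groups overlapped. In HFD + PCB 126 the values were 4.80, 1.51, 1.62, 1.33 and 1.83 CPM. Replicate 1 of this group lay at the level of the highest control mice, and the other 4 lay near the lowest control mouse. In HFD + Aroclor + PCB 126 Mki67 measured 3.56, 2.21, 5.88, 4.84 and 4.09 CPM, overlapping each of the other groups.

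Top2a and Cdk1 placed many of the same mice high and low. Top2a measured 2.82, 2.57, 1.53, 1.27 and 1.59 CPM in HFD control and 2.56, 2.51, 0.927, 0.830 and 1.06 CPM in HFD + PCB 126. Cdk1, the kinase partner of cyclins A and B, measured 2.69, 2.97, 1.45, 0.877 and 1.33 CPM in HFD control and 2.06, 1.45, 0.894, 1.24 and 0.774 CPM in HFD + PCB 126. Control replicates 1 and 2 and PCB 126 replicate 1 were again the highest of their groups. In HFD + Aroclor, replicate 1 was lowest and replicate 5 highest for Mki67, Top2a, Ccna2, Ccnb1 and Cdk1 alike.

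This co-variation between mice was measured on log2(CPM + 0.1), as each mouse's deviation from its group mean, so that no difference between exposures enters it. Of 45 pairs of the 10 transcripts, 14 passed an adjusted p of 0.05 for Pearson's r (100000 permutations within groups, two-sided, adjusted over 155 relations), and all 14 were positive and lay among Mki67, Top2a, Ccna2, Ccnb1, Cdk1 and Cdc45. These 6 transcripts were singled out after their values were seen. Their 15 pairs had r from 0.55 to 0.84 with a median of 0.75, and the pair that did not pass was Ccnb1 with Cdc45 (r = 0.55, adjusted p = 0.0998). By Spearman's rho 12 of the 14 passed, the others being Ccna2 with Cdc45 (adjusted p = 0.0624) and Mki67 with Cdc45 (adjusted p = 0.0979).

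The closest pair was Mki67 with Ccnb1 (r = 0.84, permutation p = 4e-05, adjusted p = 0.0031, rho = 0.83, permutation p = 2e-05, adjusted p = 0.0031, n = 20 mice), and r was 0.84 without the 2 mice farthest from the median of Mki67. Top2a with Cdk1 had r = 0.81 (permutation p = 9e-05, adjusted p = 0.00349) and rho = 0.82 (permutation p = 9e-05, adjusted p = 0.00697), with r = 0.80 after leaving out 2 mice in the same way. Over the 14 pairs r without 2 mice ran from 0.55 to 0.84. Leaving out any 1 of the 20 mice kept the median of the 15 pairs between 0.70 and 0.80.

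**Figure D2:**
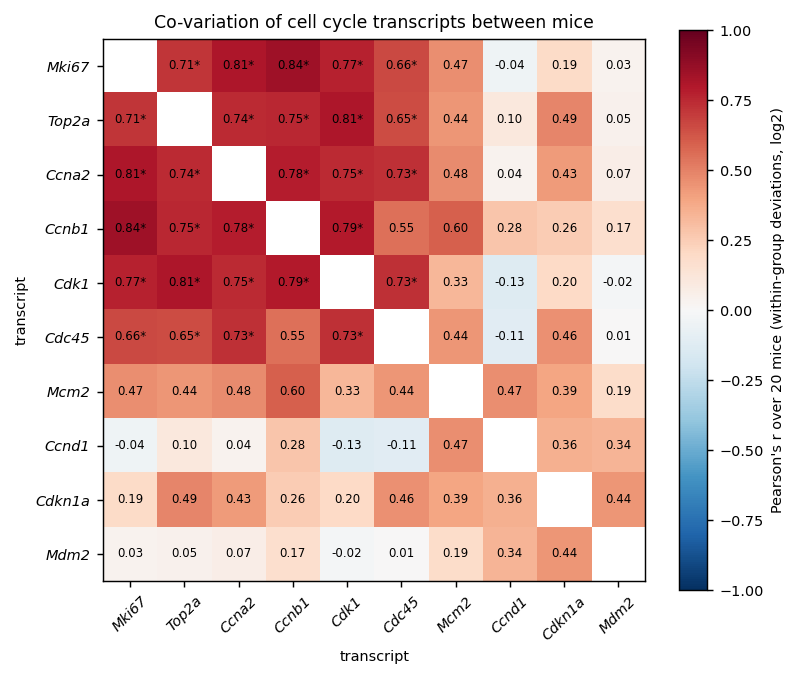
Pearson's r between cell cycle transcripts over 20 mice, on within-group deviations of log2(CPM + 0.1), with color from -1 to 1 and an asterisk at adjusted p under 0.05. The 14 marked pairs, with r from 0.65 to 0.84, all lie among the first 6 transcripts, Mki67 to Cdc45.

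The remaining 30 pairs, each with Mcm2, Ccnd1, Cdkn1a or Mdm2, had r from -0.13 to 0.60 with a median of 0.27, and none passed. Ccnd1 had r = -0.040 with Mki67 and -0.13 with Cdk1. The highest of these pairs was Ccnb1 with Mcm2 (r = 0.60, permutation adjusted p = 0.0862).

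Library measures moved with some of the same transcripts. The total count of a library had r = 0.68 with Cdk1 (permutation adjusted p = 0.0862), 0.63 with Mki67 (0.0998), 0.58 with Top2a (0.0542) and 0.56 with Ccnb1 (0.0862), and none of the 20 relations to total count or GC slope passed. With the linear trend on total count removed, the median r of the 15 pairs was 0.64, between 0.37 and 0.77, and with the trend on GC slope removed it was 0.74.

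Marker lists of 9 cell types were set beside the members in 90 relations, of which 2 passed. Cdk1 varied with the summed B and plasma cell markers (r = 0.69, permutation p = 0.00449, adjusted p = 0.0435), but its rho of 0.67 missed the threshold (permutation p = 0.00538, adjusted p = 0.0596), and r was 0.50 after leaving out the 2 mice farthest from the median. Those 5 markers summed to between 2.89 and 11.1 CPM. Mdm2 moved opposite to the 6 erythroid markers (r = -0.76, permutation p = 6e-05, adjusted p = 0.0031, rho = -0.73, permutation p = 0.00026, adjusted p = 0.00961, r without 2 mice = -0.67), whose sum ran from 137 to 366 CPM. The hepatocyte sum had r = -0.53 with Mki67 (permutation adjusted p = 0.0599), -0.59 with Ccna2 (0.0599) and -0.70 with Mcm2 (0.0526). The part of these cell types in the levels of the members was not tested.

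Promoters of Mki67, Top2a, Cdk1 and Ccnb1, from among the co-varying transcripts, are shown because cell cycle genes are known to share a pair of promoter elements. These are the CHR and the CCAAT box, which bind the MuvB complex and NF-Y. The 250 bases before the annotated start are given 5′ to 3′ on the strand of the gene (RefSeq, GRCm38.p6), with capitals at the letters of these elements on either strand. The CHR was searched as TTTGAA and, in another form, as TTCGAA, which reads the same on both strands. The CCAAT box was searched by the letters of its name, and E2F sites were searched as TTTCCCGC, TTTCGCGC, TTTGGCGC and TTTGCCGC. The windows are chr7:135716380-135716629 for Mki67, chr11:99024190-99024439 for Top2a, chr10:69352913-69353162 for Cdk1 and chr13:100786487-100786736 for Ccnb1, all on the minus strand.
Mki67: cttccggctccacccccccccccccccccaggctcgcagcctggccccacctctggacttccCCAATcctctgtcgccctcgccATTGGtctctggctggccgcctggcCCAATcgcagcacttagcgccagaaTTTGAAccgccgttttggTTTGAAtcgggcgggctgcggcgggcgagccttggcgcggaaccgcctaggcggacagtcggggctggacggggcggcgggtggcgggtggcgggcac
Top2a: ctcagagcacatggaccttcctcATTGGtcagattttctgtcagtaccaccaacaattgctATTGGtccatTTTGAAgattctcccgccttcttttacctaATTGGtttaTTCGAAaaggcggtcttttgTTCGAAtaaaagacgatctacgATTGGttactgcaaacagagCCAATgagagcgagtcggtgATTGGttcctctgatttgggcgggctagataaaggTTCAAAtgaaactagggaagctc
Cdk1: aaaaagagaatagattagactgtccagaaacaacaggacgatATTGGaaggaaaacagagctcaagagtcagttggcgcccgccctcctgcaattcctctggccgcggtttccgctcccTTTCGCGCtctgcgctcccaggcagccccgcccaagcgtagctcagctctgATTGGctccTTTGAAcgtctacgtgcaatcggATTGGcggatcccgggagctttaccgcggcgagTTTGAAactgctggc
Ccnb1: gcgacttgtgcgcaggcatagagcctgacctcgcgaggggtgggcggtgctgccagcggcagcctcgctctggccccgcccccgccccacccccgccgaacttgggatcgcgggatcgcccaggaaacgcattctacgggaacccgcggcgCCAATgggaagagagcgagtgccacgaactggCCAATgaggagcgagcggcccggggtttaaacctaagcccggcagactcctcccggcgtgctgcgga
Of the 10 members, 8 had a promoter in the table, and Ccna2 and Ccnd1 are named only. In the window from 250 bases before to 50 after the start, CHR letters were in 5 of the 8 (Mki67, Top2a, Cdk1, Mcm2 and Cdc45) and in 19.2% of 32851 promoters of the same length. CCAAT was in 7 of the 8, all but Cdkn1a, and in 37.4% of all promoters. Both together were in 5 of the 8 and in 7.52% of all promoters, and an E2F match was in Cdk1 alone of the 8 and in 2.26% of all promoters. Top2a carried 6 CCAAT matches, and Mki67 and Cdk1 carried 3 each. Cdc45, a co-varying transcript not shown, had CHR letters at -240 and 11 and CCAAT at -13 and -2 from the start. Mcm2, none of whose pairs passed, held both elements as well. A letter match is a description of the window and not a measured binding site. The Ccnb1 window held neither of the CHR forms searched, and other forms of the element were not searched.

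The comparisons with HFD control ask whether each exposure altered these transcripts. None of the 10 passed an adjusted p of 0.05 in any of them by edgeR's quasi-likelihood test over the 15522 genes. In every comparison of groups the ranges of all 10 overlapped, and the share of all genes whose ranges overlap is not given here. With Aroclor, 0 of 10 members and 0% of all genes passed. At an unadjusted p under 0.05 it was 1 of 10 members against 17.2% of all genes. With PCB 126, 0 of 10 and 0.116% of all genes passed, and at an unadjusted p under 0.05 it was 0 of 10 against 14.7%. With the combined exposure, 0 of 10 members passed where 32.8% of all genes did, 15.8% of them higher and 17% lower, and at an unadjusted p under 0.05 it was 0 of 10 against 42.4%. After GC correction 0 of 10 members passed, against 12% of all genes. Mki67, Top2a, Ccna2, Ccnb1, Cdk1, Mcm2 and Cdc45 lay at FPKM percentiles 18.7 to 36.2 of the tested genes. The shares over all genes were not matched for level. DESeq2 also called 0 of 10 in these 3 comparisons. Over all genes it called 2595 higher and 2982 lower with the combined exposure. The p-values set each difference against the spread between mice, estimated for each gene over all 4 groups together.

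**Figure D3:**
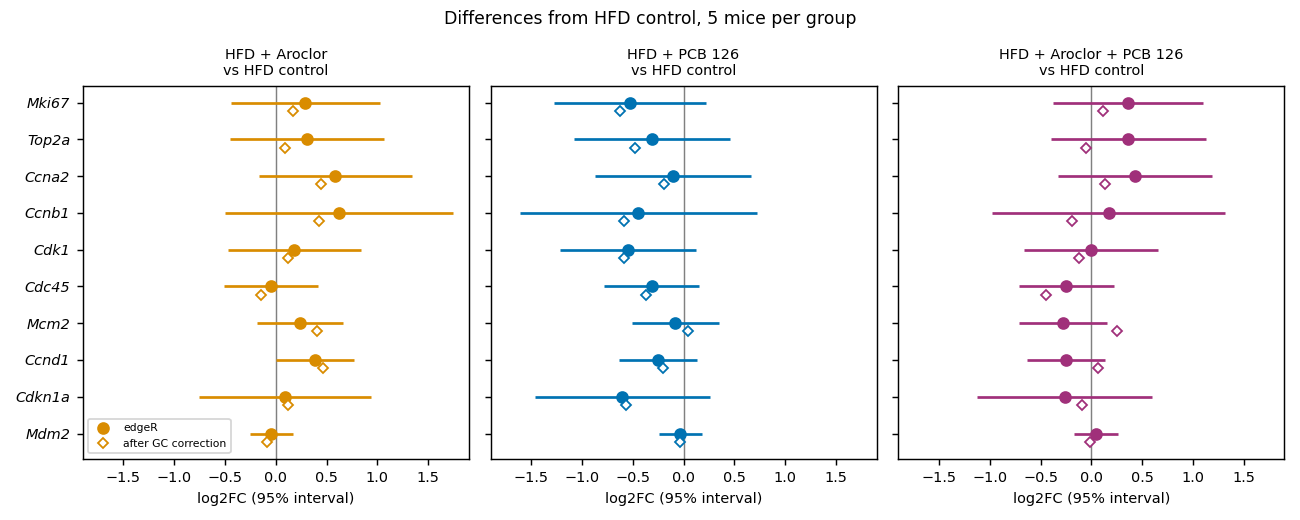
log2 fold change (log2FC) of each cell cycle transcript from HFD control in the 3 exposure groups, 5 mice per group, with filled points and 95% intervals from edgeR and open diamonds after GC correction. Of the 30 intervals shown, 29 include 0, and that of Ccnd1 with Aroclor begins at 0.0065.

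With PCB 126 all 10 log2FC were below 0, with a median of -0.31 against -0.018 over all genes. Mki67, Top2a, Ccna2, Ccnb1, Cdk1 and Cdc45 co-varied between mice. The signs of the members are thus not separate observations, here and in the comparisons that follow. Cdkn1a had the lowest value (-0.60 ± 0.41 SE, 95% interval -1.47 to 0.26, edgeR adjusted p = 0.516). Cdk1 stood at -0.55 ± 0.32 (adjusted p = 0.439) and Mki67 at -0.53 ± 0.36 (adjusted p = 0.515). After GC correction the median was -0.43 and Mcm2 turned to 0.043. Single mice weighed on these values in both directions. Without PCB 126 replicate 1 the log2FC was -1.03 for Mki67, -0.95 for Ccnb1 (-0.45 with that mouse), -0.56 for Top2a (-0.31 with it) and -0.42 for Ccna2 (-0.10 with it). Without control replicate 1 it was -0.097 for Ccnb1 and -0.14 for Top2a, without control replicate 2 it was -0.34 for Mki67 and -0.32 for Cdk1, and without PCB 126 replicate 5 Ccna2 turned to 0.046. Without PCB 126 replicate 2, a mouse whose label carries a second name with another replicate number, Cdkn1a stood at -1.06. None of these passed the test.

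Markers of some other cells also stood lower with PCB 126, with 0 called. The median log2FC was -0.76 for the neutrophil and myeloid precursor markers (5 of 6 tested, Ly6g not reaching the count minimum), whose sums were 1.44 to 4.94 CPM in HFD control and 1.08 to 3.06 CPM with PCB 126. It was -0.35 for the 4 endothelial markers, 2 of them at an unadjusted p under 0.05, with sums of 79.0 to 160.3 CPM and 73.9 to 123 CPM, and -0.22 for the 7 macrophage markers. Other medians were -0.29 for erythroid, -0.19 for cholangiocyte, -0.16 for hepatocyte and -0.050 for T and NK cell markers. B and plasma cell markers (0.064) and stellate and fibroblast markers (0.12) went the other way. Their part in the levels of the members was not tested.

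With Aroclor the members' median was 0.27 against -0.013 over all genes, and 8 of 10 were positive. After GC correction the median was 0.14, with 8 of 10 positive. Ccnd1 measured 28.9, 18.5, 29.3, 30.4 and 22.3 CPM in HFD control and 30.9, 21.2, 33.9, 40.3 and 43.1 CPM in HFD + Aroclor. Of the Aroclor mice, 4 lay above every control mouse and replicate 2 lay within the control range. The log2FC of Ccnd1 was 0.39 ± 0.18 SE (edgeR adjusted p = 0.284), the member with an unadjusted p under 0.05. Ccnb1 had the highest value, 0.62 ± 0.54, and without Aroclor replicate 5 it was 0.20. Beside these, the median log2FC was 0.51 for the 7 T and NK cell markers, 0.48 for the 5 stellate and fibroblast markers, 3 of them at an unadjusted p under 0.05, 0.44 for the neutrophil and myeloid precursor markers and 0.29 for the macrophage markers, with 0 called. It was 0.21 for B and plasma cell markers. Below 0 were the erythroid (-0.19), endothelial (-0.11), cholangiocyte (-0.088) and hepatocyte (-0.039) markers. The stellate and fibroblast sums were 121 to 233 CPM in HFD control and 210.0 to 293 CPM with Aroclor. Their part in the levels of the members was not tested.

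With the combined exposure the median of the members was 0.018, against -0.00096 over all genes, and 5 of 10 were positive. The values ran from -0.28 ± 0.21 for Mcm2 (edgeR adjusted p = 0.321) to 0.43 ± 0.37 for Ccna2 (adjusted p = 0.399). Mki67 stood at 0.36 ± 0.35 (95% interval -0.38 to 1.10). For Mdm2 the interval was the narrowest, -0.17 to 0.26 around 0.043 ± 0.10. GC correction moved most of these values. Ccna2 came to 0.13, Mki67 to 0.11 and Mdm2 to -0.016, Mcm2 turned to 0.25, Ccnd1 from -0.25 to 0.066 and Top2a from 0.36 to -0.058, and the lowest value was then that of Cdc45, -0.44 (-0.25 before). The corrected median was -0.037.

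Mcm2 measured 5.25, 3.91, 5.15, 4.08 and 4.26 CPM in HFD control and 3.34, 2.73, 6.44, 3.56 and 2.52 CPM with the combined exposure. Of the combined group, 4 mice lay below every control mouse and replicate 3 lay above them all. Without that mouse the log2FC of Mcm2 was -0.58 (edgeR adjusted p = 0.0112), the call resting on leaving it out.

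The combined exposure against each single one asks what the second agent added. Against Aroclor alone, 0 of 10 members and 0.412% of all genes passed, and at an unadjusted p under 0.05 it was 2 of 10 against 23.4%. Ccnd1 measured 23.1, 18.5, 28.1, 19.9 and 19.3 CPM with the combined exposure, where 4 of 5 Aroclor mice had more than any of these. Its log2FC was -0.64 ± 0.19 SE (95% interval -1.02 to -0.25, edgeR adjusted p = 0.0754). DESeq2 called it (-0.63, adjusted p = 0.0194), as did the fit without combined replicate 3 (-0.75, edgeR adjusted p = 0.0343), and after GC correction it was -0.40 (edgeR adjusted p = 0.369). Mcm2 stood at -0.52 ± 0.21 (edgeR adjusted p = 0.142), at -0.82 without combined replicate 3 (edgeR adjusted p = 0.0179) and at -0.15 after GC correction.

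Against PCB 126 alone, 0 of 10 members passed where 16.7% of all genes did, and at an unadjusted p under 0.05 it was 1 of 10 against 35.6%. The median log2FC was 0.44, against 0.070 over all genes, and 9 of 10 were positive. Mki67 stood at 0.88 ± 0.36 SE (95% interval 0.14 to 1.63, edgeR adjusted p = 0.0879), and without PCB 126 replicate 1 at 1.39 (edgeR adjusted p = 0.00765). After GC correction it was 0.73 (edgeR adjusted p = 0.236), and the median of the members was 0.36. Beside it, the neutrophil and myeloid precursor markers had a median log2FC of 0.75 (1 of 5 at an unadjusted p under 0.05), with sums of 1.08 to 3.06 CPM with PCB 126 and 1.96 to 3.22 CPM with the combined exposure. The 4 endothelial markers had a median of 0.34 (3 of 4 at an unadjusted p under 0.05), and in both lists 0 passed. Likewise, the 7 T and NK cell markers had a median log2FC of 0.72 and sums of 3.49 to 5.50 CPM with PCB 126 and 4.05 to 7.44 CPM with the combined exposure, and 0 of 7 passed. The 7 macrophage markers had a median of 0.50 with 1 of 7 passing, and sums of 90.6 to 237 CPM against 177 to 236 CPM. The median was 0.30 for stellate and fibroblast markers. Below 0 were the erythroid (-0.26), cholangiocyte (-0.24), B and plasma cell (-0.12) and hepatocyte (-0.11) markers. Their part in the level of Mki67 was not tested.

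The interaction, which asks whether the combined difference departs from the sum of the single ones, passed for 0 of 10 members and for 0% of all genes, and at an unadjusted p under 0.05 for 0 of 10 against 11.9%. The values ran from -0.44 ± 0.29 for Mcm2 to 0.59 ± 0.50 for Mki67 (95% interval -0.45 to 1.64), and after GC correction these 2 stood at -0.20 and 0.57. These comparisons share groups, so their values are not separate evidence.

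Cdkn1a and Mdm2 are both genes whose transcription p53 activates, and they varied differently between mice. The activity of p53 was not measured. Cdkn1a measured 7.94, 7.02, 7.40, 8.64 and 12.6 CPM in HFD control, 4.19, 4.26, 11.4, 9.15 and 17.2 CPM with Aroclor and 4.92, 11.9, 3.77, 4.19 and 3.76 CPM with PCB 126. With the combined exposure it measured 11.7, 3.19, 6.02, 11.1 and 4.23 CPM. With PCB 126, 4 mice lay below every control mouse and replicate 2 lay near the top of the control range. The coefficient of variation of Cdkn1a was 25.6% in HFD control and 54.1% to 61.1% in the 3 exposed groups, a difference in spread that was not tested. The 61.1% is that with PCB 126 and rested largely on replicate 2, at 11.9 CPM against 3.76 to 4.92 in the others. Mdm2 had 12.4% in HFD control and 4.35% to 12.7% in the exposed groups.

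Other genes of the same pathways were described from 6 lists of 104 genes in all. With Aroclor and with PCB 126, 0 of 104 passed. With the combined exposure 25 of 104 passed (24.0%, against 32.8% of all genes), 13 higher and 12 lower, and after GC correction 13 passed, 4 higher and 9 lower, against 12% of all genes. The median log2FC of the 104 was 0.045. Of the 5 stellate and fibroblast markers 4 passed in the same comparison (Lrat, Reln and Dcn higher, Des lower) and 1 after GC correction, and their part in the pathway genes was not tested.

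Of the 14 genes of the G1 machinery 4 rose and 4 fell (57.1%, against 32.8% of all genes). After GC correction 2 were higher and 2 lower, with 12% of all genes called. The list was not tested as a set. Ccne2, which encodes cyclin E2, rose from 0.980 ± 0.277 to 2.00 ± 0.273 CPM (SD, n = 5, log2FC 1.04 ± 0.27 SE, edgeR adjusted p = 0.00691), and Rb1, the retinoblastoma gene, from 7.18 ± 1.00 to 13.4 ± 1.26 CPM (0.91 ± 0.16, edgeR adjusted p = 0.00095). Ccnd3, the gene of cyclin D3, fell from 36.7 ± 2.05 to 18.5 ± 2.64 CPM (-0.99 ± 0.15, edgeR adjusted p = 0.000505). For these 3 genes the groups did not overlap. After GC correction Ccnd3 (-0.47, edgeR adjusted p = 0.00971) and Rb1 (0.44, edgeR adjusted p = 0.0117) passed and Ccne2 did not (0.59, edgeR adjusted p = 0.116). With each library's GC slope as a covariate, a fit in which far fewer genes were called, all 3 calls were lost (Ccnd3 at -0.38, Rb1 at 0.21 and Ccne2 at 0.45). All 3 share part of their span with a gene on the opposite strand, as do Ccna2, Ccnd1 and Cdc45 among the members, and whether strand was used in counting is not given in the sources used here.

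**Figure D4:**
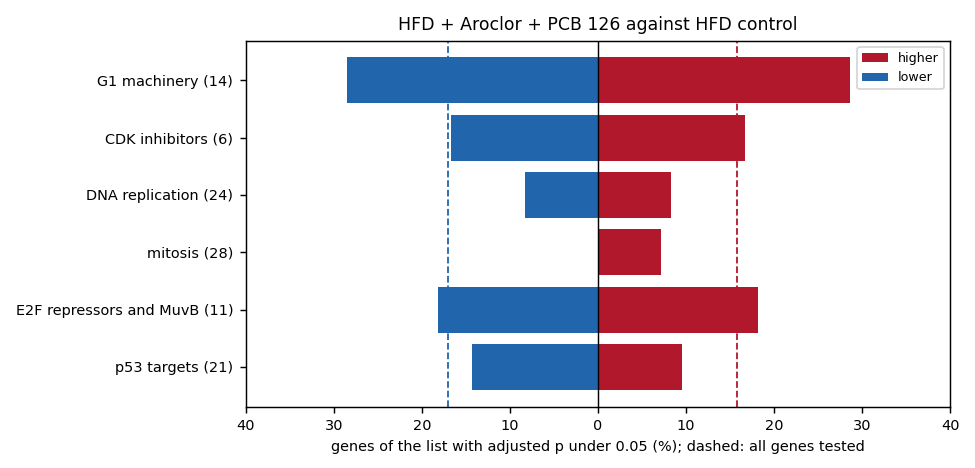
Share of each cell cycle gene list, in percent of the genes tested (number in brackets), that was higher (red, right) or lower (blue, left) at an edgeR adjusted p under 0.05 in HFD + Aroclor + PCB 126 against HFD control, with dashed lines at the shares over all 15522 genes. Of the mitosis genes 2 of 28 were higher and 0 lower, against 15.8% and 17% of all genes.

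Among 6 CDK inhibitors 1 rose and 1 fell (33.3%, against 32.8% of all genes). Cdkn1b, which encodes p27, rose from 9.89 ± 0.268 to 14.4 ± 0.769 CPM (log2FC 0.54 ± 0.11 SE, edgeR adjusted p = 0.00193) and stood at 0.16 after GC correction (edgeR adjusted p = 0.372).

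Of 24 DNA replication genes 2 rose and 2 fell (16.7%, against 32.8% of all genes). Pola1, the catalytic subunit of DNA polymerase alpha, measured 2.06, 1.94, 2.10, 2.24 and 2.45 CPM in HFD control and 4.88, 4.69, 4.62, 4.11 and 5.21 CPM with the combined exposure. The groups lay apart (log2FC 1.13 ± 0.16 SE, edgeR adjusted p = 0.000505), and after GC correction it was 0.69 (edgeR adjusted p = 0.00359), while with GC slope as a covariate its call was lost (0.71, edgeR adjusted p = 0.154). Rrm2, a subunit of ribonucleotide reductase, rose by 0.65 ± 0.16 (edgeR adjusted p = 0.00435) with overlapping groups and stood at 0.39 after GC correction (edgeR adjusted p = 0.112). Mcm10, a replication factor that binds the helicase, fell from 142 ± 21.2 to 98.6 ± 21.1 CPM (-0.53 ± 0.15, edgeR adjusted p = 0.00922), with overlapping groups, and by 0.60 on the log2 scale after GC correction (edgeR adjusted p = 0.0132), and its call was lost with GC slope as a covariate (-0.37, edgeR adjusted p = 0.587).

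Mitosis genes, 28 in number, gave 2 that rose and 0 that fell (7.14%, against 32.8% of all genes), and 0 after GC correction. Ect2, a cytokinesis factor, rose from 0.892 ± 0.476 to 1.79 ± 0.478 CPM (log2FC 1.02 ± 0.35 SE, edgeR adjusted p = 0.0281). Its call was lost without control replicate 1 (0.88), 2 (0.80) or 5 (1.001) and without combined replicate 1 (0.85).

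Of 11 E2F repressors and MuvB subunits 2 rose and 2 fell (36.4%, against 32.8% of all genes). Lin37 fell from 7.45 ± 0.543 to 3.76 ± 0.915 CPM (log2FC -0.99 ± 0.18 SE, edgeR adjusted p = 0.00104) and by 0.55 on the log2 scale after GC correction (edgeR adjusted p = 0.00721), and its call was lost with GC slope as a covariate (-0.21, edgeR adjusted p = 0.743). It too overlaps a gene on the opposite strand. Lin54, the MuvB subunit that binds the CHR, rose by 0.75 ± 0.23 (edgeR adjusted p = 0.0157), and E2f4 fell from 14.9 ± 0.518 to 10.1 ± 2.16 CPM (-0.56 ± 0.13, edgeR adjusted p = 0.00299). Neither passed after GC correction (0.31, edgeR adjusted p = 0.311, and -0.16, edgeR adjusted p = 0.287), and with each library's GC slope as a covariate Lin54 stood at -0.0048.

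Of 21 p53 pathway genes 2 rose and 3 fell (23.8%, against 32.8% of all genes). Bax, which promotes apoptosis, fell from 14.1 ± 3.12 to 6.46 ± 1.80 CPM (log2FC -1.13 ± 0.21 SE, edgeR adjusted p = 0.0012) and by 0.57 on the log2 scale after GC correction (edgeR adjusted p = 0.0109), while with GC slope as a covariate it stood at 0.046. Trp53, the p53 gene itself, fell by 0.49 ± 0.13 (edgeR adjusted p = 0.00857) and Plk3, a stress-responsive kinase, by 1.22 ± 0.40 (edgeR adjusted p = 0.0254), and neither passed after GC correction (-0.22, edgeR adjusted p = 0.172, and -0.58, edgeR adjusted p = 0.35). With GC slope as a covariate Trp53 stood at 0.033. For Bax, Trp53 and Plk3 the groups overlapped. The Plk3 call was lost without control replicate 1 (-1.002) or 5 (-1.06) and without combined replicate 3 (-1.08) or 4 (-1.10).

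The genes whose levels over the 20 libraries were most like those of 3 members were taken from 12176 genes with a mean of at least 0.5 CPM, by Pearson's r of log2(CPM + 0.1), as a description over libraries that share groups and depth. For Mki67 they were Tpx2, a spindle assembly factor (r = 0.93), Gsta1 (0.89), Knstrn, a kinetochore protein (0.87), Gm3776 (0.87) and Slc22a27 (0.86). Ccna2 came at rank 16, Cdk1 at rank 21, Top2a at rank 54 and Cdc45 at rank 488. For Ccnd1 they were Mmp14 (0.74), Papss1 (0.70), Col15a1 (0.70), Sptan1 (0.70) and Cttn (0.69), with Mcm2 at rank 33 (0.62) and Mki67 at rank 3774 (0.16). For Cdkn1a they were Itsn1 (0.83), Leo1 (0.77), Baiap2l1 (0.72), Atp11a (0.70) and Gimd1 (0.69), with Mdm2 at rank 644 (0.38).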

How the data were processed

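Liver mRNA of 20 mice was sequenced on stranded libraries in 2 runs, whose samples the sources used here do not tell apart. The deposited counts are raw read counts per Ensembl gene, made by the authors with STAR (2.6) on GRCm38.p6 and HTSeq (0.10.0) after FastQC (0.10.1). Whether strand was used, and the annotation release, are not given in the sources used here. Of 21780 identifiers, 21754 had a GENCODE M21 entry. CPM used TMM-scaled library sizes, and FPKM divided them by merged exon length.

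Genes with at least 10 counts in total were fitted together over the 4 groups with edgeR 4.0.16 (R 4.3.3, quasi-likelihood, two-sided), with Benjamini-Hochberg adjustment over 15522 genes and a threshold of 0.05. This was checked on simulated counts. The study's own tool, DESeq2 (1.42.0), was an alternative. SE is the log2FC divided by the root of its F statistic. GC correction used a spline of 6 degrees of freedom on transcript GC content for each library. The label of PCB 126 replicate 2 carries a second name with another replicate number, and the stated replicate was used. Mice without a stated litter or cage were taken as separate replicates. Libraries of a group differed from each other beyond counting error.

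The members and gene lists were chosen with earlier results of these data known. The text names the 10 members, up to 3 genes per list and comparison with control, taken by size of log2FC among those called whose mean reached 0.5 CPM, and the 5 genes most like Mki67, Ccnd1 and Cdkn1a. Total counts bound the precision, and a count of 0 in a library would allow up to 3 counts. The labels give the exposure as 12 weeks, while the methods give 2 weeks of diet before the gavage.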

Additional observations from a re-analysis of the deposited data

Results flagged for a closer look

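In 4 of the 40 groups of 5 mice formed by the 10 members, and in 8 of 96 with the named pathway genes included, 1 mouse lay apart from the other 4 by Dixon's test at the 95% level. Chance gives about 1 in 20 where groups are separate and values normal. The groups here share mice and the values were CPM without a logarithm. No excess over chance is read from these counts.

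With PCB 126, replicate 1 had 4.80 CPM of Mki67 against 1.33 to 1.83 in the other 4 mice and 0.567 CPM of Ccnb1 against 0.166 to 0.211. With PCB 126, replicate 2 had 11.9 CPM of Cdkn1a against 3.76 to 4.92. With the combined exposure, replicate 3 had 6.44 CPM of Mcm2 against 2.52 to 3.56.

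Among the pathway genes, Rrm2 was low in Aroclor replicate 2 (3.30 CPM against 3.82 to 3.91) and Ect2 high in combined replicate 1 (2.64 CPM against 1.53 to 1.68). In HFD control, Lin37 was high in replicate 1 (8.41 CPM against 7.13 to 7.31) and Bax low in replicate 4 (8.64 CPM against 14.96 to 16.1).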

How the results depend on the processing

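Beside the values in the report, 393 of the 448 log2FC and correlations recomputed under other settings kept their direction and their side of the threshold. For the named pathway genes, 28 calls were lost with the direction kept, 11 of them with GC slope as a covariate. Those 11 were all the named pathway genes but Lin54, Bax and Trp53, which turned in sign with that covariate. The count of all genes called with Aroclor (0) was 143 by DESeq2 and 483 with GC slope as a covariate. With PCB 126 (18) it was 310 by DESeq2, 68 with filterByExpr, 47 with an FPKM filter, 4 with only the groups compared, 46 after GC correction and 745 with GC slope. With the combined exposure (5089) it was 1857 after GC correction and 519 with GC slope (34 higher, 485 lower). Against Aroclor (64) it was 107 with RLE size factors, 1343 by DESeq2, 13 with no filter, 292 with filterByExpr, 636 with the FPKM filter, 0 with only the groups compared, 7 after GC correction and 2 with GC slope. Against PCB 126 (2589) it was 72 after GC correction and 0 with GC slope, and DESeq2 gave 1 gene for the interaction (0). The count of members was 1 by DESeq2 against Aroclor. The cause was not tested.

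The replicate numbers were not taken to pair the mice, since no label ties them to a litter or batch and not every same-numbered pair was alike: their correlations of deviations ran from -0.27 to 0.76 (median 0.06, 30 pairs). As a hint from the data of some pairing, 10 of 20 mice correlated best with a mouse of their own number, where numbers drawn evenly give 4. The label of PCB 126 replicate 2 also carries another replicate number, so its block is uncertain. With a replicate block the genes called were 26 with Aroclor, 101 with PCB 126, 475 against Aroclor and 38 for the interaction, and with GC correction and replicate block 22, 122, 1933 with the combined exposure, 414 against PCB 126 and 39 for the interaction. With the replicate block 1 member was called, Ccnd1 against Aroclor (-0.62, edgeR adjusted p = 0.0498), and Cdk1 with the combined exposure turned to 0.045. With GC correction and the replicate block together, Mcm2 turned to 0.062 with PCB 126, and with the combined exposure Top2a turned to -0.021, Ccnb1 to -0.28, Ccnd1 to 0.078, Mcm2 to 0.23 and Mdm2 to -0.021.

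After GC correction alone, Mcm2 turned to 0.043 with PCB 126, and with the combined exposure Top2a turned to -0.058, Ccnb1 to -0.20, Ccnd1 to 0.066, Mcm2 to 0.25 and Mdm2 to -0.016. With GC slope as a covariate, Cdc45 turned to 0.076 and Cdkn1a to -0.089 with Aroclor, Ccna2 to 0.045 and Mcm2 to 0.049 with PCB 126, and with the combined exposure Cdk1 to 0.58, Mcm2 to 0.22, Cdc45 to 0.065, Mdm2 to -0.11, Lin54 to -0.0048, Bax to 0.046 and Trp53 to 0.033.

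Leaving out 1 mouse at a time gave 4 to 131 genes with PCB 126, 0 to 1011 against Aroclor and 245 to 3403 against PCB 126, and 0 to 1 members with the combined exposure, 0 to 2 against Aroclor and 0 to 1 against PCB 126. Signs turned for Cdc45 (-0.22 to 0.046), Cdkn1a (-0.26 to 0.27) and Mdm2 (-0.12 to 0.0068) with Aroclor, for Ccna2 (-0.42 to 0.046) and Mdm2 (-0.084 to 0.018) with PCB 126, and for Ccnb1 (-0.24 to 0.52), Cdk1 (-0.18 to 0.22) and Mdm2 (-0.0054 to 0.096) with the combined exposure. The median correlation of the 15 pairs, with settings chosen after seeing the data, was 0.75 with a pseudocount of 0.5 CPM and 0.77 with no TMM factor. Counts of Ccnb1, at 3 to 37 per library, limit what can be seen of it.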

Other observations

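Mcm10 stood apart from the other MCM genes in level, which was noticed after its values were seen. Per length it measured 9.83 to 22.4 FPKM over the 20 livers, with a median of 15.1, while the medians of Mcm2 to Mcm7 lay between 0.600 FPKM for Mcm5 and 2.35 FPKM for Mcm7. Its mean was at percentile 86.8 of the tested genes, and that of Mcm2 at 36.2. On within-group deviations its r with Mki67 was -0.52, against 0.74 for Mcm6, 0.48 for Mcm3, 0.47 for Mcm2, 0.28 for Mcm5, 0.22 for Mcm4 and -0.15 for Mcm7, given as a description over 20 mice with no test.

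Gsta1, a glutathione transferase, and Slc22a27, a solute carrier, were among the 5 genes most like Mki67. Gsta1 measured 3.84, 2.20, 1.11, 0.307 and 1.07 CPM in HFD control and 4.83, 0.516, 0.430, 0.166 and 0.528 CPM with PCB 126. Slc22a27 measured 5.75, 3.14, 1.07, 0.219 and 0.903 CPM in HFD control and 7.19, 1.06, 1.13, 0.539 and 0.844 CPM with PCB 126. Control replicates 1 and 2 and PCB 126 replicate 1 were the highest of their groups for both, as for Mki67. In the other groups this held for Gsta1 and not for Slc22a27. Mki67 and Gsta1 were highest in Aroclor replicate 5 and combined replicate 3, while Slc22a27 was highest in Aroclor replicate 2 (4.81 CPM) and combined replicate 1 (4.22 CPM). Gsta1 and Gm3776 are near-identical copies, so the split of reads between them is uncertain.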
